A study of Mus musculus with 16 samples.

Results

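Genes that control how mitochondria are made, shaped and removed were followed in C2C12, a mouse myoblast line that fuses into myotubes in culture. The members are the 10 genes with the symbols Ppargc1a, Ppargc1b, Tfam, Nrf1, Mfn1, Mfn2, Opa1, Dnm1l, Bnip3 and Fundc1. They were chosen by symbol, for their roles, and all 10 were found among the 31053 genes of the expression table. The study sequenced mRNA of wild-type (WT) cells and of Fam134bKO cells, which lack both isoforms of the ER-phagy receptor Fam134b. Each genotype was sampled as undifferentiated myoblasts and as differentiated myotubes, with 4 biological replicates in each of the 4 groups. The knockout was made with a lentiviral CRISPR-Cas9 vector carrying a pair of guides, followed by drug selection, and no clone is named. All groups were grown in DMEM with fetal bovine serum, and the myotubes formed spontaneously in this growth medium with no added inducer. A sample label field lists the genotype as unknown, so the groups come from the sample titles, which give no day of culture.

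Mitochondrial content is set by transcription, by fusion and division of the organelle and by its removal. The PGC-1 coactivators Ppargc1a and Ppargc1b act through factors such as Nrf1, which drives nuclear genes of the respiratory chain and Tfam. The Tfam protein packages mitochondrial DNA and takes part in starting its transcription. Mitofusins (Mfn1, Mfn2) join outer membranes, Opa1 joins inner membranes and shapes the cristae, and the dynamin Dnm1l (Drp1) divides the organelle. Bnip3 and Fundc1 sit in the outer membrane and bind LC3 proteins to deliver mitochondria to autophagosomes, and Bnip3 is a classical target of the hypoxia factor HIF-1. In muscle, the mitochondrial network is remodelled as myoblasts fuse.

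Of the 9 tested members, Bnip3 had the widest range over the 16 samples (2.86 on the log2 scale). It rose 4.30-fold from WT myoblasts to WT myotubes and 3.42-fold from Fam134bKO myoblasts to Fam134bKO myotubes, and its level did not pass the test between genotypes at either stage. Dnm1l rose 1.37-fold on differentiation of WT cells and was 1.39-fold higher in Fam134bKO than in WT myoblasts. None of the other 7 tested members passed an adjusted p of 0.05 in any comparison. Folds and log2 differences here are on the scale of log2(normalized count + 1), a call is a Benjamini-Hochberg adjusted p under 0.05 from limma across 10767 tested genes, and "rose" and "fell" are used for called genes alone. A gene was tested when its normalized count reached 10 in at least 4 samples, which 9 of the 10 members did. Of all tested genes, 13.8% rose and 9.16% fell on WT differentiation, and 17.3% rose and 16.1% fell on Fam134bKO differentiation. In Fam134bKO against WT cells 7.26% were higher and 8.5% lower in myoblasts, and 9.74% were higher and 13.7% lower in myotubes. The counts of genes called in each list below stand beside these shares.

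**Figure D1:**
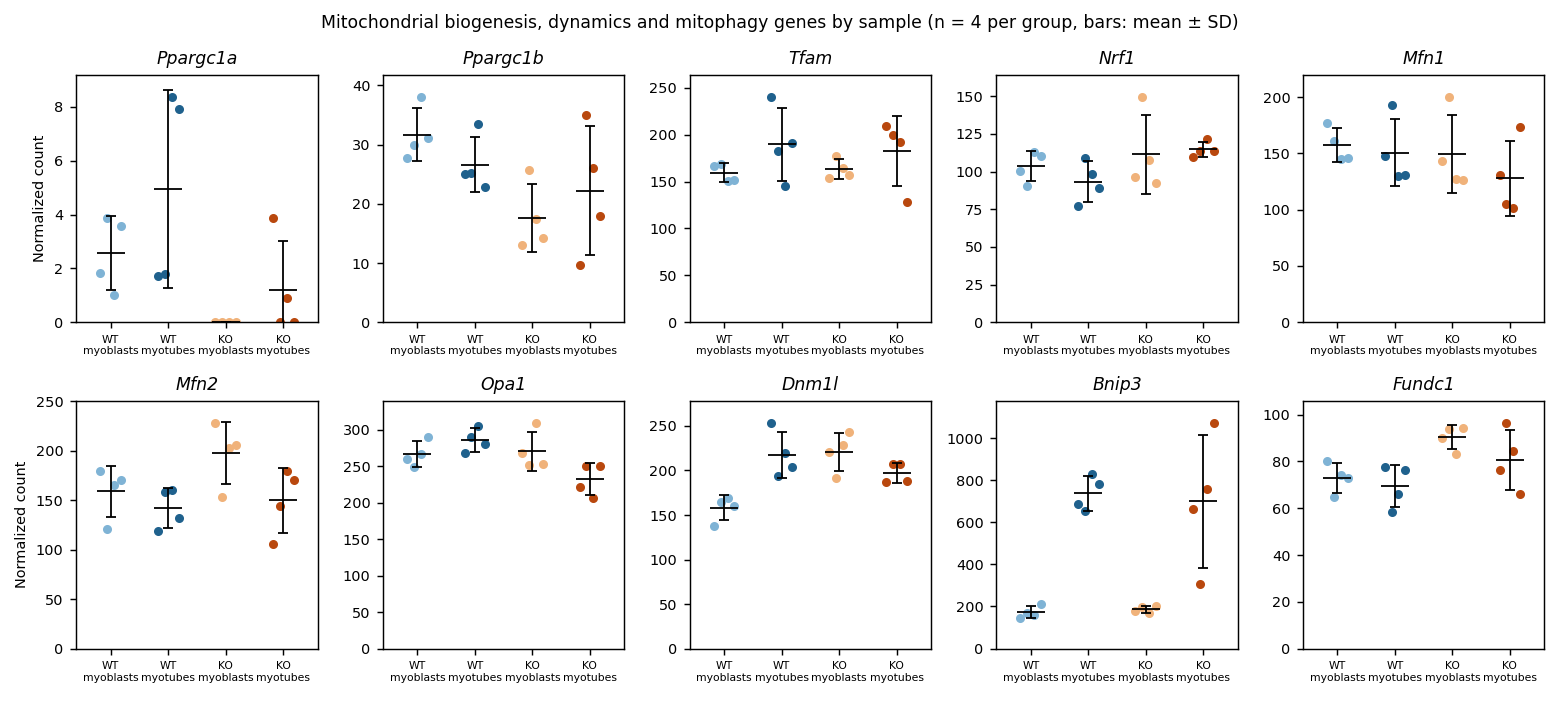
Normalized count (y axis, from 0) of each of the 10 members in every sample, with the 4 groups on the x axis, 1 point per sample, and black bars for the mean ± SD (n = 4). Bnip3 lies between 147 and 213 in the 8 myoblast samples and between 306 and 1071 in the 8 myotube samples of both genotypes (KO, knockout).

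Sequencing depth on genes lay between 1484750 and 3287461 reads, and Fam134bKO myotubes replicates 2 and 4 were the shallowest, with 1790524 and 1484750 reads. A level of 3 reads, taken as the limit of detection, corresponded to a normalized count of 2.49 to 5.99. It covers counting error only. The Fam134bKO myotubes also varied most, with a root-mean-square deviation from their group mean of 0.448 to 0.691 on the log2 scale, against 0.260 to 0.440 in the other groups. Fam134b itself, listed today as Retreg1, was 207 ± 42.0 (SD, n = 4) in WT myoblasts and 27.5 ± 5.49 in Fam134bKO myoblasts, and 232 ± 61.6 and 41.8 ± 14.0 in the myotubes. The knockout label was thus matched by lower mRNA at both stages (log2 difference -2.86, adjusted p = 2.95e-08, and -2.46, adjusted p = 9.85e-07). Of 16 muscle differentiation markers, 16 rose on differentiation in each genotype, while 15 were lower in Fam134bKO than in WT myoblasts and 12 in the myotubes. The myogenic factor Myog had 0 reads in each Fam134bKO myoblast sample, and Pax7, a marker of muscle stem cells, had at most 5 reads in any sample. The summed level of 7 fibroblast markers had medians of 3414 in WT and 8503 in Fam134bKO myoblasts, and of 15902 and 25712 in the respective myotubes, with Thy1, Lum and Tcf21 at 3 reads or fewer throughout. Of its 4 tested genes, 3 rose on differentiation in each genotype and 2 were higher in Fam134bKO cells at each stage, against 1 in myotubes without both shallow Fam134bKO myotube samples. Of 6 tested myoblast markers, 4 rose on differentiation in each genotype and 1 fell in Fam134bKO cells, and 4 were lower in Fam134bKO than in WT myoblasts and 3 in myotubes. Of 2 tested adipocyte markers 1 fell in Fam134bKO cells and 1 was higher in Fam134bKO myoblasts, and no macrophage marker reached the level for testing. Of 10 proliferation markers, 7 fell on differentiation in WT and 10 in Fam134bKO cells, and 8 were lower in Fam134bKO than in WT myotubes. Without both shallow samples, 6 proliferation and 10 muscle differentiation markers were lower in Fam134bKO than in WT myotubes. In that fit 9 proliferation markers fell in WT cells, 0 myoblast markers fell in Fam134bKO cells and 1 was higher in Fam134bKO myoblasts. The part of these differences in the results below was not tested, and in bulk RNA fewer cells of a type cannot be told apart from less RNA per cell.

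Among the regulators of biogenesis, Ppargc1a was close to the limit of detection and was not tested. Its mRNA was read 2, 4, 1 and 4 times in WT myoblasts (replicates 1 to 4) and 2, 2, 9 and 8 times in WT myotubes. In Fam134bKO cells it had 0 reads in each of the 4 myoblast samples and 4, 0, 1 and 0 reads in the myotubes. At this depth the coactivator was seen in every WT sample and in 2 of the 8 Fam134bKO samples, and no fold is given. Ppargc1b, the related coactivator, had normalized counts of 27.7, 29.9, 38.0 and 31.2 in WT myoblasts and of 13.1, 25.7, 17.4 and 14.2 in Fam134bKO myoblasts. All 4 knockout myoblast samples were below all 4 WT myoblast samples, yet the log2 difference of -0.85 (SE 0.33, 95% confidence interval -1.54 to -0.16) had an adjusted p of 0.0923 and was not called. This comparison depended on the samples in the fit, since Ppargc1b was called when only its own 8 samples were compared (adjusted p = 0.0228), without Fam134bKO myotubes replicate 1 (0.0440) and without both shallow Fam134bKO myotube samples (0.0434). With sample weights Ppargc1b had an adjusted p of 0.000727, and in all it was called in 4 of 27 alternative fits. The spread in the main fit is shared with the Fam134bKO myotubes. Their SD for Ppargc1b was 0.756 on the log2 scale, against 0.190 in WT and 0.412 in Fam134bKO myoblasts. In the fits that did not call it, adjusted p reached 0.229. In myotubes Ppargc1b overlapped between genotypes, at 26.6 ± 4.69 in WT and 22.2 ± 10.9 in Fam134bKO.

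Tfam and Nrf1 gave no called difference in any comparison. Tfam measured 159 ± 9.91 in WT myoblasts, 190 ± 39.1 in WT myotubes, 163 ± 10.6 in Fam134bKO myoblasts and 182 ± 36.9 in Fam134bKO myotubes (SD, n = 4 each). Its log2 change on differentiation was 0.23 in WT (interval -0.14 to 0.60) and 0.14 in Fam134bKO cells (interval -0.24 to 0.51). Nrf1 measured 104 ± 10.2 and 93.3 ± 13.6 in WT myoblasts and myotubes, and 111 ± 26.1 and 115 ± 5.00 in the Fam134bKO groups. Each Fam134bKO myotube sample (109 to 121) was just above the highest WT myotube sample for Nrf1, and the log2 difference of 0.30 was not called (adjusted p = 0.240).

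Other genes of the biogenesis network were described by a list of 15, of which 11 were tested. On differentiation, 1 of these 11 was higher in WT and 2 were higher in Fam134bKO cells, and none was lower. Prkaa2, the muscle-rich catalytic subunit of the energy sensor AMPK, rose by 1.81 on the log2 scale in WT (adjusted p = 0.00585). In Fam134bKO cells it rose by 1.44 (adjusted p = 0.0169). It measured 5.11 ± 2.51 in WT myoblasts, which is near the limit of detection. No myoblast sample reached the level for testing (at most 8.02 in WT and 5.81 in Fam134bKO), so Prkaa2 was tested through the myotubes alone. That entry favoured a call of higher in WT cells, and the 1 WT call above is Prkaa2. Between genotypes 0 of the 11 were called in myoblasts, with 0 at an unadjusted p under 0.05 and 0 by limma voom, and in myotubes 2 were lower in Fam134bKO cells. These were Gabpa, a subunit of the nuclear respiratory factor GABP (log2 difference -1.35, adjusted p = 0.0299), and Nrip1, a corepressor of metabolic genes (-0.98, adjusted p = 0.0310). Without both shallow samples Gabpa was at -0.38 (adjusted p = 0.295), and 2 genes of the list, not 1, rose in WT cells. Perm1 and Ppara stayed at 5 reads or fewer in every sample. Of 11 tested genes for mitochondrial DNA maintenance and transcription, 1 rose in WT cells, and 1 rose and 2 fell in Fam134bKO cells. The helicase Twnk rose in WT (0.62) and in Fam134bKO cells (1.05). Ssbp1, which binds single-stranded mitochondrial DNA, and the elongation factor Tefm fell in Fam134bKO cells by 1.33 and 1.20, and Tefm was lower in Fam134bKO than in WT myotubes (-1.14, adjusted p = 0.0227). These 3 calls were lost without both shallow samples, where Ssbp1 and Tefm changed by -0.63 and -0.53 and Tefm differed by -0.47 (adjusted p = 0.221, 0.198 and 0.295). In that fit the list again held 2 genes that fell and 1 that was lower in Fam134bKO myotubes, but they were other genes. The DNA polymerase subunit Polg2 was at -1.35 and -1.33 (adjusted p = 0.0308 and 0.0452) in place of -0.52 and -0.51, and Mterf4 at -0.96 (adjusted p = 0.00828) in place of -0.20 on differentiation.

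The fusion members showed no called difference. Mfn1 measured 157 ± 15.1 and 150 ± 29.7 in WT myoblasts and myotubes, against 149 ± 34.8 and 128 ± 33.3 in the Fam134bKO groups, and the samples of all groups overlapped. Mfn2 measured 159 ± 26.1 and 142 ± 20.1 in WT, and 197 ± 31.2 and 150 ± 32.9 in Fam134bKO myoblasts and myotubes. Its log2 change in Fam134bKO cells was -0.41 (interval -0.81 to -0.01) with an adjusted p of 0.109. Opa1 measured 260, 249, 267 and 291 in WT myoblasts and 268, 290, 306 and 280 in WT myotubes, then 268, 252, 309 and 253 in Fam134bKO myoblasts and 222, 251, 206 and 250 in Fam134bKO myotubes. All 4 Fam134bKO myotube samples were thus below the WT myotube samples and below the Fam134bKO myoblast samples. The log2 differences of -0.30 between genotypes (adjusted p = 0.119) and -0.22 on differentiation (adjusted p = 0.231) did not pass the test.

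Around these fusion proteins, 12 of 14 listed genes for fusion, Opa1 processing and cristae were tested. On differentiation 1 rose in WT cells, and 1 rose and 2 fell in Fam134bKO cells. Without both shallow samples 1 rose and 1 fell in WT cells, and 0 rose and 1 fell in Fam134bKO cells. The inner-membrane protease Yme1l1, which cleaves Opa1, rose in WT (0.67, adjusted p = 0.0140) and in Fam134bKO cells (0.49, adjusted p = 0.0499, and 0.38 with 0.196 without both shallow samples). Immt and Chchd3, core parts of the MICOS complex at cristae junctions, fell in Fam134bKO cells (by 0.82 and 0.42), a call that Chchd3 lost without both shallow samples (adjusted p = 0.106). The interaction of genotype and differentiation was called for 0 genes of the list by limma and by limma voom, with 3 at an unadjusted p under 0.05. Between genotypes the same pair of genes was called at both stages. Chchd6, another MICOS subunit, was higher in Fam134bKO cells by 0.57 in myoblasts and 0.69 in myotubes, and Opa3 was lower (-0.51 and -0.72).

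Dnm1l, the fission dynamin, lies at chr16:16312230-16358959 on the minus strand of GRCm38 (mm10). In WT myoblasts it measured 137, 165, 169 and 160, and in WT myotubes 253, 194, 219 and 204. In Fam134bKO myoblasts it measured 220, 192, 228 and 243, and in Fam134bKO myotubes 187, 207, 207 and 188. The WT myoblasts were lower than every sample of the other 3 groups, whose ranges overlapped. Dnm1l rose by 0.46 on the log2 scale on WT differentiation (SE 0.15, interval 0.15 to 0.76, adjusted p = 0.0291) and was higher by 0.48 in Fam134bKO than in WT myoblasts (SE 0.15, interval 0.17 to 0.78, adjusted p = 0.0278). Both results share the WT myoblast samples. No change was called on differentiation of Fam134bKO cells (-0.16, interval -0.46 to 0.15) or between genotypes in myotubes (-0.14, interval -0.44 to 0.17). The test of the difference between the WT and Fam134bKO changes gave -0.62 (SE 0.21, interval -1.05 to -0.18) with an adjusted p of 0.113, so a difference of response was not called. Each call was close to the threshold. It was lost when single samples were left out, with adjusted p up to 0.0977 on WT differentiation (4 of 16 samples, WT myoblasts replicates 1 and 4 and WT myotubes replicates 1 and 3). Between genotypes in myoblasts, adjusted p reached 0.101 (5 of 16 samples, WT myoblasts replicates 1 and 4 and Fam134bKO myoblasts replicates 1, 3 and 4).

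Of 12 other fission genes, 10 were tested. On differentiation 1 rose and 1 fell in WT cells, and 1 rose and 2 fell in Fam134bKO cells, against 3 and 3 in Fam134bKO cells without both shallow samples. Fis1, an outer-membrane protein tied to fission, measured 685 ± 117 in WT myoblasts, 399 ± 101 in WT myotubes, 443 ± 59.4 in Fam134bKO myoblasts and 207 ± 28.8 in Fam134bKO myotubes. It fell on differentiation by 0.81 in WT (adjusted p = 0.00492) and 1.09 in Fam134bKO cells (adjusted p = 0.000181), and was lower in Fam134bKO cells at both stages (-0.62 and -0.91). Mief2, which recruits Dnm1l to mitochondria, rose by 1.77 in WT cells, from 25.4 ± 5.70 to 89.8 ± 24.5. It measured 29.5 ± 4.63 and 46.6 ± 20.1 in Fam134bKO cells, where the change of 0.55 was not called (adjusted p = 0.155) but was 1.04 and called (adjusted p = 0.00995) without both shallow samples. It was lower in Fam134bKO than in WT myotubes (-0.99, adjusted p = 0.0186, but -0.51 with 0.231 without both shallow samples). Its interaction of genotype and differentiation was not called (-1.22, adjusted p = 0.119). The related adaptor Mief1 was lower in Fam134bKO myoblasts (-0.60), Mtfr1 was lower in Fam134bKO myotubes (-1.16), and Mul1 fell (by 0.58) and Mtfr1l rose (0.55) on differentiation of Fam134bKO cells. Between genotypes 2 of 10 were lower in myoblasts and 3 of 10 in myotubes, against 8.5% and 13.7% of all genes, and 0 of 10 were called higher at either stage by limma or limma voom, against 7.26% and 9.74%. In either direction 2 and 6 of 10 had an unadjusted p under 0.05.

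Bnip3, the mitophagy receptor that changed most, lies at chr7:138890836-138909519 on the minus strand of GRCm38. A window before a RefSeq start is shown for both called members because their transcripts are what moved. Each is the stretch of 250 bases before the RefSeq start (GRCm38.p6), at chr7:138909507-138909756 for Bnip3 and chr16:16358576-16358825 for Dnm1l, on the minus strand. The Dnm1l window lies inside the GENCODE span of the gene (chr16:16312230-16358959), downstream of its outer end at 16358959. It is thus not the sequence before the whole gene. Capitals mark matches on either strand to the hypoxia response element core (ACGTG or GCGTG), to the central part of the NRF-1 motif (GCGCANGC) and to the E-box (CANNTG).
Bnip3: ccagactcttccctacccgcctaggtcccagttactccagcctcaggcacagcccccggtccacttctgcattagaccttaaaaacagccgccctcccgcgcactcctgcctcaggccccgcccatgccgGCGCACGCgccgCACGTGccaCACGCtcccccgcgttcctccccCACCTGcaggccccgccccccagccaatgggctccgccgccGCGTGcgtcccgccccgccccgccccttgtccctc
Dnm1l: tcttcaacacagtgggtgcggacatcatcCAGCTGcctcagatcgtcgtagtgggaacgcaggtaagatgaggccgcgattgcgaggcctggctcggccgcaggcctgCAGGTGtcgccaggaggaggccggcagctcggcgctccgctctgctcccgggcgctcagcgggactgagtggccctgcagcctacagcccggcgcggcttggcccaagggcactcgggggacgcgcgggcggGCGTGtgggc

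Counting back from the start, Bnip3 held CACGTG at -108 to -103, which reads ACGTG on both strands and is also an E-box. GCGTG matched at -117 to -113, -99 to -95 and -35 to -31, the first inside an NRF-1 match at -120 to -113, and a further E-box lay at -76 to -71. The Dnm1l window held no ACGTG and no NRF-1 match, 1 GCGTG at -10 to -6 and E-boxes at -221 to -216 and -142 to -137. As this window lies inside the gene, its letters do not describe the bases before the outer end of Dnm1l. The counts below include it. Of 9 members with a promoter in the RefSeq table, which gives them 13 windows in all, 3 held ACGTG (Bnip3, Mfn2 and Ppargc1a), 5 held GCGTG, 3 held the NRF-1 letters (Bnip3, Mfn2 and Opa1) and 8 held an E-box. The letters CCGGAAG, a GABP motif, were found in Mfn1 and Tfam. Of 32851 promoter windows searched in the same way, 16.6% held ACGTG, 28.2% GCGTG, 8.3% GCGCANGC, 6.91% CCGGAAG and 66.2% CANNTG. Counted by window in the same way, the members held them in 3, 7, 3, 2 and 9 of 13, and windows of 1 gene can overlap. These matches describe letters in the windows and were not tested as binding sites.

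The Bnip3 values separated the stages without overlap. WT myoblasts measured 147, 167, 161 and 213, and WT myotubes 686, 655, 831 and 781. Fam134bKO myoblasts measured 177, 198, 168 and 202, and Fam134bKO myotubes 664, 306, 759 and 1071. The lowest and the highest myotube values both came from the shallow Fam134bKO samples. The log2 change was 2.10 in WT (SE 0.25, interval 1.58 to 2.62, adjusted p = 2.99e-06) and 1.77 in Fam134bKO cells (SE 0.25, interval 1.25 to 2.29, adjusted p = 1.31e-05). It was called in all 28 alternative settings for each genotype, with log2 changes of 2.03 to 2.21 and of 1.53 to 2.13. Between genotypes the log2 difference was 0.13 in myoblasts (interval -0.39 to 0.65, adjusted p = 0.809) and -0.20 in myotubes (interval -0.72 to 0.32, adjusted p = 0.604). The interaction was -0.33 (interval -1.06 to 0.41, adjusted p = 0.681), an interval that still holds a response weaker in Fam134bKO cells by 1 log2 unit. Without Fam134bKO myotubes replicate 2 the myotube difference was 0.15. Of the 31-base stretches in the last 500 bases of Bnip3 transcripts, 25.7% also occur in Gm14506, Gm16439, Gm6532 or Gm9419, and for Dnm1l 9.7% occur in Gm13719, so the counts of both genes are uncertain by what such copies add or remove.

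Fundc1, the other receptor among the members, measured 80.3, 64.6, 74.1 and 73.1 in WT myoblasts and 90.1, 93.8, 83.3 and 94.3 in Fam134bKO myoblasts. The knockout myoblasts were all above the WT myoblasts, with a log2 difference of 0.31 (interval -0.07 to 0.68) that was not called (adjusted p = 0.290). In myotubes it measured 69.6 ± 9.08 in WT and 80.8 ± 12.8 in Fam134bKO, with overlapping samples. On differentiation Fundc1 gave log2 changes of -0.07 in WT and -0.17 in Fam134bKO cells, neither called, beside the called change of Bnip3 in the same samples.

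Of 17 other mitophagy genes, 15 were tested. On differentiation 2 rose in WT cells, and 3 rose and 2 fell in Fam134bKO cells. In Fam134bKO against WT cells 3 were higher and 1 lower in myoblasts, and 1 was higher and 1 lower in myotubes. Pink1, the kinase that marks damaged mitochondria, rose on differentiation in WT (0.76, adjusted p = 0.00421) and Fam134bKO cells (0.48, adjusted p = 0.0436), and was higher in Fam134bKO than in WT myoblasts (0.66, adjusted p = 0.0132). The autophagy adaptor Nbr1 rose by 0.80 in WT and 0.86 in Fam134bKO cells, and the kinase Ulk1, which starts autophagosome formation, rose in Fam134bKO cells (0.74). Tax1bp1, another adaptor, and the segregase Vcp fell in Fam134bKO cells by 0.49 and 0.46. Sqstm1 (p62), which links ubiquitin to LC3, was higher in Fam134bKO cells in myoblasts (0.54, adjusted p = 0.0270) and myotubes (0.84, adjusted p = 0.000796). Tax1bp1 was also higher in Fam134bKO myoblasts (0.52), while Bnip3l (NIX), the closest relative of Bnip3, was lower there (-0.44, adjusted p = 0.0487), and the deubiquitinase Usp15 was lower in Fam134bKO myotubes (-0.66). Without both shallow samples the Fam134bKO changes of Pink1, Ulk1 and Vcp (adjusted p = 0.176, 0.0603 and 0.0684) and the difference of Usp15 (0.0737) were no longer called. Bnip3l measured 343 ± 19.8 and 324 ± 26.7 in WT myoblasts and myotubes, a log2 change of -0.08 that was not called.

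**Figure D2:**
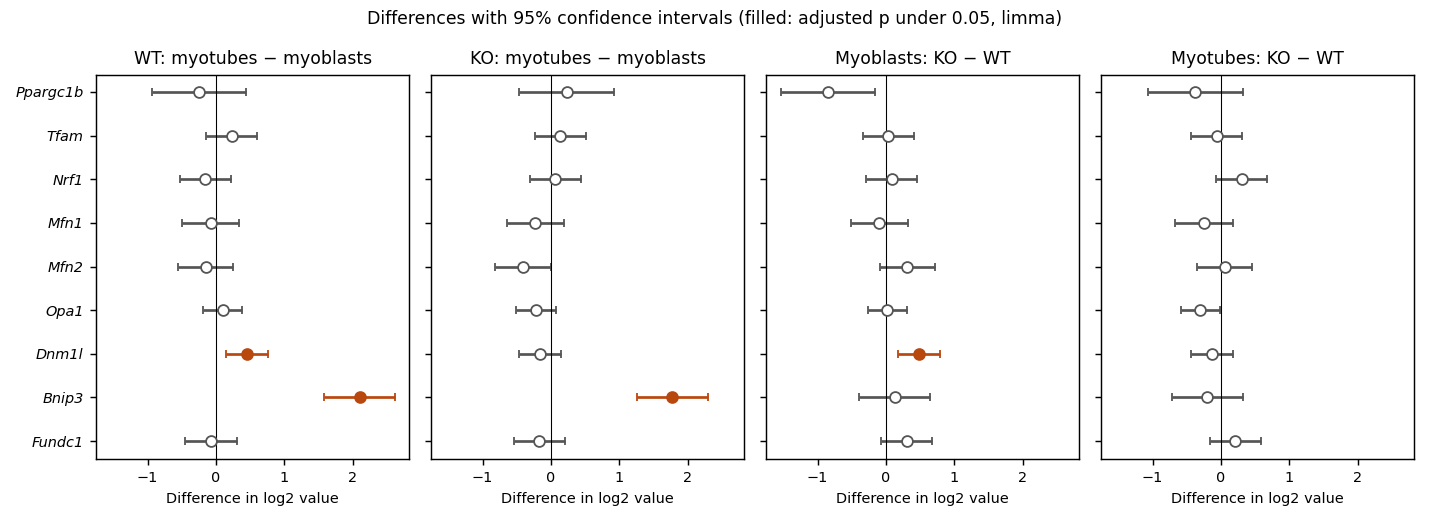
Log2 difference (x axis) of the 9 tested members (y axis) in the 4 comparisons, with 95% confidence intervals. Filled points, Bnip3 on differentiation in both genotypes and Dnm1l on WT differentiation and between genotypes in myoblasts, have an adjusted p under 0.05, and Ppargc1b between genotypes in myoblasts has an interval of -1.54 to -0.16 without passing.

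Counted over the members, 2 of 9 were called on WT differentiation, against 23% of all tested genes. Both were higher, a direction called for 13.8% of all genes (9.16% were lower), and the groups did not overlap for 2 members, against 28% of all genes. On differentiation of Fam134bKO cells 1 of 9 was called and it was higher, with 33.4% of all genes called, 17.3% higher and 16.1% lower, and 2 of 9 did not overlap, against 27.4%. Between genotypes in myoblasts 1 of 9 was called and higher, against 15.8% of all genes called, 7.26% higher and 8.5% lower, and 3 of 9 did not overlap, against 26.8%. Between genotypes in myotubes 0 of 9 were called, against 23.4% of all genes (9.74% higher and 13.7% lower), 1 had an unadjusted p under 0.05 and 2 did not overlap, against 19.4%. The interaction called 0 of 9 members and 3.45% of all genes, with 1 member at an unadjusted p under 0.05, and limma voom on the recovered reads also called 0 in both of these comparisons. The median log2 difference of the members was -0.07, -0.16, 0.08, -0.14 and -0.15 in this order of comparisons, beside -0.01, -0.02, -0.01, -0.07 and -0.04 over all tested genes. The share of members called was near or below that of all genes in each comparison, and 8 of 9 on each differentiation and 9 of 9 between genotypes differed by less than 1 log2 unit. So did 86.2% and 79.2% of all tested genes on WT and Fam134bKO differentiation, and 88.8% and 84.8% between genotypes in myoblasts and myotubes.

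The genes whose profile over the 16 samples lay nearest to that of Bnip3 were Pdk1 and Aamdc. Nearness was the root-mean-square difference of centred log2 values, which was 0.32 for Pdk1 and 0.34 for Aamdc, where Bnip3 itself varied by 1.04 around its mean. Pdk1, the kinase that closes the pyruvate dehydrogenase step, measured 47.9 ± 9.65 and 225 ± 53.6 in WT myoblasts and myotubes, and 41.6 ± 7.65 and 189 ± 54.6 in the Fam134bKO groups. Aamdc measured 45.0 ± 6.73 and 194 ± 37.2 in WT, and 39.5 ± 9.05 and 167 ± 45.3 in Fam134bKO cells. Like Bnip3, both were higher in every myotube sample than in any myoblast sample. This follows largely from their choice by nearness to Bnip3 over these same samples and is not a separate result.

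**Figure D3:**
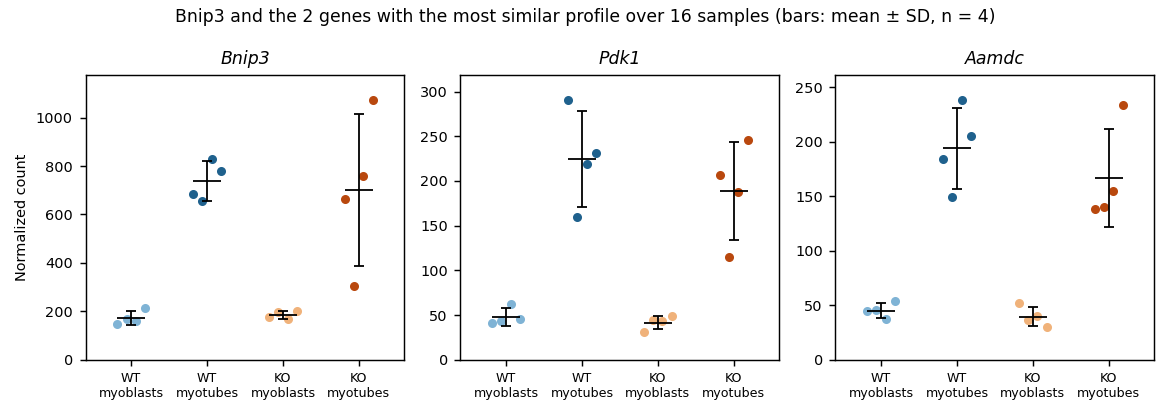
Normalized count (y axis, from 0) of Bnip3, Pdk1 and Aamdc in each sample of the 4 groups (x axis), with the mean ± SD (n = 4). In WT cells the means go from 172 to 738 for Bnip3, from 47.9 to 225 for Pdk1 and from 45.0 to 194 for Aamdc.

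Other known HIF-1 targets were followed by a list of 17 genes without Bnip3, of which 16 were tested and which includes Pdk1. On differentiation 10 of the 16 rose in WT and 9 rose in Fam134bKO cells, and none fell, with a median log2 change of 0.83 and 0.84. Adm, the vasodilator peptide adrenomedullin, rose by 2.77 in WT and 2.78 in Fam134bKO cells, and P4ha1, a collagen prolyl hydroxylase, rose by 2.38 in WT and 2.92 in Fam134bKO cells. Car9, a carbonic anhydrase, had 0 reads in all myoblast samples and 14 to 44 reads in WT myotubes, against 1 to 57 reads in Fam134bKO myotubes. Car9 was thus tested through the myotubes alone and could only be called higher. Adm also entered through the myotubes alone (at most 4.46 in WT and 3.47 in Fam134bKO myoblasts), which favoured a call of higher. The counts above include Car9 and Adm in both genotypes. They also include Pdk1, which was picked above by its nearness to Bnip3 in these same samples. Between genotypes the list was split, with Ndrg1 higher in Fam134bKO cells (0.76 in myoblasts and in myotubes), Egln3, an oxygen-sensing hydroxylase, lower at both stages (-1.88 and -1.13), and Ldha, lactate dehydrogenase A, lower in Fam134bKO myotubes (-0.70). The list was chosen with earlier results of these data known. The mRNA counts hold no measure of oxygen or of HIF-1 protein, and a part of HIF-1 in the Bnip3 change was not tested.

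**Figure D4:**
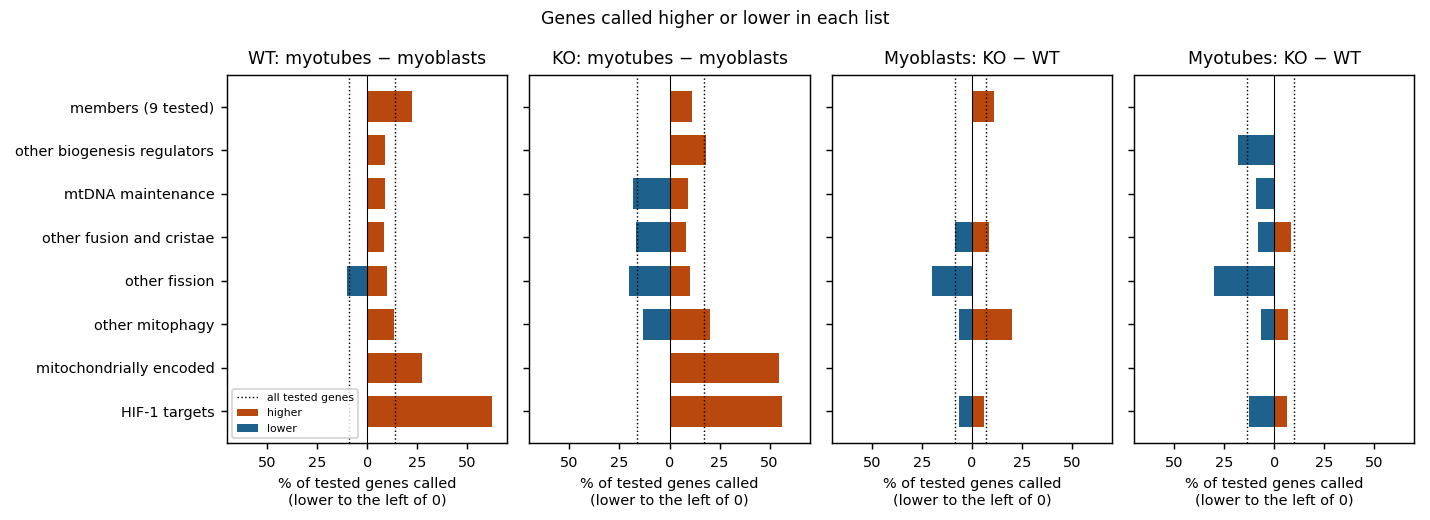
Share of tested genes (x axis, in percent) called higher (right of 0) or lower (left of 0) for the members and 7 related lists (y axis) in the 4 comparisons, with dotted lines for all tested genes. On WT differentiation 10 of 16 HIF-1 targets were called higher, beside 13.8% of all genes. They include Car9, which could only be called higher, and Adm, which was also tested through the myotubes alone. The lists for biogenesis, mitochondrial DNA maintenance, fusion, fission and mitophagy had 1 of 11, 1 of 11, 1 of 12, 1 of 10 and 2 of 15 called higher. The biogenesis gene is Prkaa2, which was tested through the myotubes alone. The mitochondrially encoded mRNAs had 3 of 11.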

How the data were processed

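Per the methods and labels, libraries were made from 125 ng of total RNA with a digital mRNA-seq service and read from 1 end, and the authors converted base calls with bcl2fastq, trimmed reads and removed ribosomal RNA and phiX with bbduk, aligned with STAR 2.6.0a and counted genes with HTSeq on mm10. The strand setting and the normalization tool are not given in the sources used here. The deposited values are log2 of normalized count plus 1, and 2 to the power of a value, minus 1, is a whole multiple of 1 read per sample for 100% of values above 0 (tolerance 0.01), which gave the reads and depth. Rows without a symbol held 0.0126% of reads. Groups came from the sample titles.

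A gene entered the fit if 4 or more of 16 samples reached a normalized count of 10 (10767 of 31053 genes). A gene could thus enter through a single group, which favours a call of higher in that group. The fit used limma 3.58.1 in R 4.3.3 (lmFit and contrasts.fit, then eBayes with its trend option) on 4 group means without a covariate, and calls were made at 0.05 after Benjamini-Hochberg adjustment. This step was tested on simulated data. The 5 comparisons were differentiation in each genotype, genotype at each stage, and their interaction. One spread per gene is shared by all groups, so intervals are too narrow for the more variable Fam134bKO myotubes and can be too wide between the less variable groups. As the samples are replicates of 1 line per genotype, p-values measure the spread between cultures. The deposited unit is log2, so no negative binomial count model was run, and the recovered reads were tested by limma voom as an alternative.

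Alternatives were pseudocounts of 0.5 and 5, no filter, a minimum of 50, total, quantile and median-ratio scaling, a replicate block, only the 8 samples compared, sample weights, limma voom, an adjusted p under 0.01, each sample left out and, added after seeing the data, leaving out both shallow Fam134bKO myotube samples. The members and lists were chosen with earlier results of these data known. Named genes were the members, up to 2 called higher and 2 called lower per list and comparison, and for a member called at an absolute log2 change of 1 or more its 2 nearest profiles. Perm1, Ppara, Polg2, Mterf4, single marker genes and a named gene's values in further comparisons fall outside this rule and were chosen after their values were seen. Promoter windows are from RefSeq (GRCm38.p6), and gene positions and transcript ends from GENCODE M21 (GRCm38), which gives 2 genes on the opposite strand of Bnip3 and 1 on that of Dnm1l, whose reads cannot be told apart without strand. It also lists overlapping genes for Ppargc1a (4) and Ppargc1b (2), on both strands, and for Nrf1 (1) and Mfn2 (1), on the opposite strand.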

Additional observations from a re-analysis of the deposited data

How the results depend on the processing

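Of the values with an alternative fit that kept all samples or left out both shallow ones, 513 kept their direction and side of the threshold, 6 came to pass it and 7 changed sign, all among differences that were not called. Counts of members called on WT differentiation went from 2 to 1 at an adjusted p under 0.01 and lay between 1 and 2 with single samples left out. On Fam134bKO differentiation sample weights gave 2 (Mfn2 joining). Between genotypes in myoblasts the count of 1 became 2 with no filter (Ppargc1a joining), 2 with only the 8 samples compared, 3 with sample weights (Mfn2 and Ppargc1b joining), 2 without both shallow Fam134bKO myotube samples and 0 at an adjusted p under 0.01, and lay between 0 and 2 with single samples left out. For the interaction sample weights gave 1 (Dnm1l, adjusted p = 0.0473). Quantile normalization lowered the share of higher calls on WT differentiation from 60.1% to 49.7%. The cause of these shifts was not tested, apart from the stricter threshold and the fewer samples by construction.

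Sign changes were as follows. Without both shallow samples, Ppargc1b on Fam134bKO differentiation was -0.0823, Tfam between genotypes in myotubes 0.103 and in the interaction 0.0700, and Mfn2 between genotypes in myotubes -0.0381. Sample weights gave 0.0312 and 0.0175 for the same Tfam values and -0.0672 for Nrf1 between genotypes in myoblasts. With single samples left out, Ppargc1b on Fam134bKO differentiation ranged from -0.0295 to 0.555 and Nrf1 there from -0.0138 to 0.214. Fundc1 on WT differentiation ranged from -0.129 to 0.00667. Between genotypes in myoblasts Tfam ranged from -0.00825 to 0.0615, Nrf1 from -0.0667 to 0.161 and Opa1 from -0.0480 to 0.0591. In myotubes Tfam ranged from -0.180 to 0.102, Mfn2 from -0.0396 to 0.213 and Bnip3 from -0.453 to 0.148. In the interaction Tfam ranged from -0.214 to 0.0682 and Bnip3 from -0.578 to 0.0229.

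The values showed little likeness by replicate number, since same-numbered samples had a mean correlation of deviations of 0.0330 (-0.223 to 0.369) beside -0.0108 for different numbers. The sample titles do not say whether same-numbered samples were grown or processed together, and these correlations cannot tell. A replicate block gave 2, 1, 1, 0 and 0 members called in the 5 comparisons, as without it, with Bnip3 at 2.10 and 1.77 and Dnm1l at adjusted p of 0.0390 and 0.0407. Depth limits Ppargc1a, at 9 reads or fewer.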

Other observations

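The 13 protein-coding mRNAs of the mitochondrial genome, made on the template that Tfam packages, were read beside the nuclear members, and 11 of them were tested. On differentiation 3 rose in WT and 6 rose in Fam134bKO cells, none fell, and the median log2 change over the 11 was 1.40 and 1.25. mt-Nd5, a subunit of complex I listed as ND5, rose by 1.77 in WT (adjusted p = 0.00178) and by 1.72 in Fam134bKO cells (adjusted p = 0.00140). ND4 rose by 1.40 and 1.42, and ND6 rose by 1.97 in Fam134bKO cells. By limma voom 6 rose in each genotype. In the fit without both shallow Fam134bKO myotube samples 9 rose in WT and 5 in Fam134bKO cells, with ND6 at 1.23 (adjusted p = 0.150). Their summed normalized count had medians of 38490 in WT myoblasts and 71023 in WT myotubes, and of 35061 and 68215 in the Fam134bKO groups, with a range of 9936 to 52069 in the Fam134bKO myoblasts. Between genotypes and in the interaction 0 of 11 were called by limma or limma voom, and 0 had an unadjusted p under 0.05. Nuclear copies of mitochondrial sequence were not separated from these transcripts.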
